A study of Mus musculus with 4 samples.

Results

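The clustered protocadherin genes lie in 3 gene clusters, Pcdha, Pcdhb and Pcdhg, side by side on mouse chromosome 18. CpG methylation in them was read from reduced representation bisulfite sequencing, which cuts DNA with the enzyme MspI and so samples mainly CpG-rich sequence. The members are the cytosines of CpG sites that had 10 or more calls in every library inside 3 intervals of the mouse build mm9: 37080000 to 37360000 for Pcdha, 37410000 to 37700000 for Pcdhb and 37820000 to 38010000 for Pcdhg. The rule used positions and depth only, not methylation. It gave 361 cytosines in Pcdha, 201 in Pcdhb and 891 in Pcdhg, together 1453 of the 1899909 cytosines of the genome that met the depth. In windows of 1 kb with at least 3 such cytosines, the unit of the tests below, these became 18, 21 and 48 windows, together 87 of 121563, which hold 351, 192 and 882 of the cytosines.

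The libraries came from mouse embryonic stem (ES) cells, 2 of wild type (WT) and 2 of a Naa10 knockout (KO), where Naa10 encodes the catalytic subunit of an N-terminal acetyltransferase. Cells of both genotypes were kept in N2B27 medium with LIF, the Mek inhibitor PD325901 and the Gsk3 inhibitor Chir99021 on irradiated feeder cells, followed by 5 feeder-free passages. Whether the libraries of a genotype are separate cultures or clones, and how the knockout was made, is not given in the sources used here, so a p-value here measures no more than how far these libraries lie apart, which may be technical. Each library held 68586396 to 79540412 methylation calls over 3795379 to 3918007 cytosines, KO levels were far below WT levels genome-wide, and bisulfite data give no expression with which to check the genotype labels.

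Clustered protocadherins are cell adhesion proteins through which neurons recognise their own branches. Each variable exon of the clusters has a promoter of its own, and a neuron uses only a few of them. In Pcdha and Pcdhg the chosen variable exon is spliced to constant exons shared by the cluster, whereas Pcdhb genes each encode a whole protein in 1 exon. DNA methylation of these promoters in the early embryo is known to take part in which of them stay silent, and the DNA-binding protein CTCF binds the unmethylated ones. The RefSeq gene table, of assembly GRCm38.p6, lists 14 genes of the first cluster, from Pcdha1 to Pcdha12 followed by Pcdhac1 and Pcdhac2. It lists 22 genes of the second, Pcdhb1 to Pcdhb22, and 22 of the third, from Pcdhga1 to Pcdhgc5, of which Pcdhgb8 is a pseudogene. In that order Slc25a2, a mitochondrial carrier gene, and Taf7, which encodes a subunit of the general transcription factor TFIID, stand between Pcdhb22 and Pcdhga1. The table is of another build than the files, so no window below is assigned to a gene, promoter or exon.

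In WT cells the 3 clusters were not alike. Pcdhb was the most methylated, with a mean level over its cytosines of 46.7% in WT replicate 1 and 45.9% in WT replicate 2. Pcdha had 19.6% and 19.9%, and Pcdhg had 21.1% and 21.8%. The rest of chromosome 18, with 54401 cytosines, had 31.9% in each WT library, so over cytosines Pcdhb lay above it and the other 2 clusters below it by far more than the difference between the WT libraries. This order depends on the weighting: with each 1 kb window weighing the same, the WT mean was 42.0% in Pcdhb, 31.9% in Pcdha and 28.2% in Pcdhg, all below the 61.5% of the rest of chromosome 18. Over cytosines, sequence just outside was nearer to the chromosome than to Pcdhb. The 120 kb between Pcdhb and Pcdhg had a WT mean of 30.9% over 123 cytosines, the 200 kb before Pcdha had 30.7% over 228, and the 200 kb after Pcdhg had 23.4% over 381. By window mean this turned round: the same intervals had 50.7%, 48.2% and 42.55%, each nearer to Pcdhb than to the rest of chromosome 18. It did not in the 50 kb between Pcdha and Pcdhb. This interval had 33.4% over 23 cytosines and a window mean of 63.6% over 3 windows, near the chromosome in both.

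In KO cells all 3 clusters were nearly unmethylated. Pcdha had 4.91% in KO replicate 1 and 2.61% in KO replicate 2, a mean of 3.76% ± 1.63 (SD, n = 2) against 19.7% ± 0.224 (SD, n = 2) in WT. Pcdhb had 9.36% and 3.82%, a mean of 6.59% ± 3.91 (SD, n = 2) against 46.3% ± 0.508 (SD, n = 2). Pcdhg had 5.46% and 3.72%, a mean of 4.59% ± 1.22 (SD, n = 2) against 21.5% ± 0.523 (SD, n = 2). The genotypes did not overlap in any cluster, and the differences were -16.0, -39.7 and -16.9 percentage points. With each window weighing the same the difference in Pcdha was -25.1 points. The order of the clusters seen in WT, with Pcdhb highest, was also that of KO replicate 1, but in KO replicate 2 Pcdhb and Pcdhg were nearly level. With 2 against 2 libraries a two-sided exact permutation test cannot go under p = 0.333, and each cluster gave that value.

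**Figure D1:**
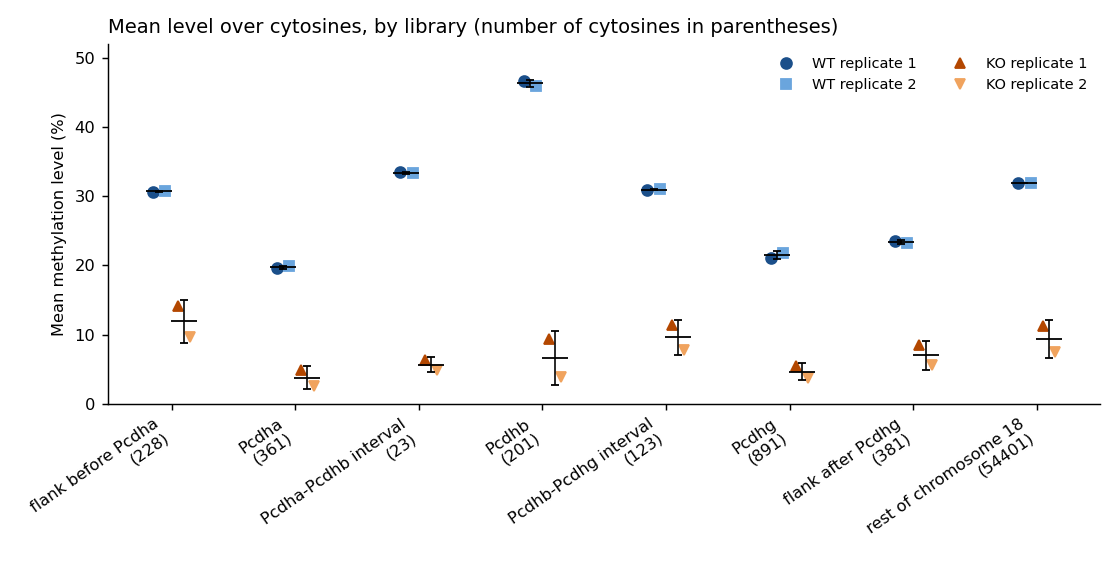
Mean methylation level in percent (vertical axis) over the cytosines of each interval of chromosome 18 (horizontal axis, number of cytosines in parentheses), with 1 point per library, and horizontal lines and bars for the mean and SD of the 2 libraries of a genotype. Pcdhb has the highest WT level of the intervals, 46.3%, and falls to 6.59% in KO, while the rest of chromosome 18 goes from 31.9% to 9.35%.

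The clusters kept a smaller share of their WT level than the chromosome around them. KO replicate 1 held 24.9% of the mean WT level in Pcdha, 20.2% in Pcdhb and 25.4% in Pcdhg, and 35.4% in the rest of chromosome 18. KO replicate 2 held 13.2%, 8.26% and 17.3%, and 23.3% in the rest of the chromosome. Within each KO library every cluster was thus below the chromosome. The nearby sequence differed in this. The 200 kb before Pcdha held 46.0% and 31.5% of its WT level, the Pcdhb to Pcdhg interval 36.9% and 25.2%, and the 200 kb after Pcdhg 36.0% and 23.6%. The 50 kb between Pcdha and Pcdhb held 19.1% and 14.7%, as low as the clusters, over only 23 cytosines.

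This difference was also set out by expressing each cluster as a percentage of the rest of chromosome 18 in the same library. A ratio takes out a library-wide change only where the share kept is alike at every WT level. It was not alike. In KO, windows of the rest of chromosome 18 below 20% in WT kept 33.3% of their WT level. Those at 20 to 50% kept 22.75%, at 50 to 80% 24.2%, and at 80% or more 30.9%. Pcdha stood at 61.5% and 62.4% of the chromosome in the WT libraries and at 43.5% and 35.2% in the KO libraries. Pcdhb went from 146% and 144% to 82.9% and 51.6%, a crossing that holds for means over cytosines only, since by window mean Pcdhb was below the chromosome in WT (42.0% against 61.5%) and in KO (5.84% against 17.9%). Pcdhg went from 66.3% and 68.6% to 48.3% and 50.2%. The groups did not overlap in any of the 3 clusters. The same exact permutation test returned p = 0.333 for all 3, and 0.333 after Benjamini-Hochberg adjustment over them. Depth differed a little: KO calls over WT calls were 0.893 in Pcdha and 0.933 in Pcdhg, against 0.958 in the rest of chromosome 18. In Pcdhb, the cluster with the largest fall, the ratio was 0.955, close to that of the chromosome. The part of depth, or of the WT level, in the difference was not tested.

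In WT all 3 clusters held a larger share of cytosines methylated in part than the rest of chromosome 18, a description without a test. A cytosine with a level between 20 and 80% is methylated in some of the sequenced molecules and not in others, whichever cells or alleles these came from. Such cytosines made up 30.2% and 28.5% of Pcdha in the 2 WT libraries, 42.3% and 35.8% of Pcdhb, and 24.7% and 28.3% of Pcdhg. In the rest of chromosome 18 they were 12.5% and 12.8%. The chromosome had instead 26.4% and 26.1% of its cytosines at 80% or more, where Pcdha had 6.09% and 6.65% and Pcdhg 7.52% and 6.96%. Pcdhb, with 25.9% and 28.4%, matched the chromosome in its fully methylated share, and had far fewer cytosines under 20%, 31.8% and 35.8% against 61.1% and 61.1%.

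The contrast was reversed in KO. The class limits are fixed, so the KO shares also depend on the WT shares, and this part was not tested. The rest of chromosome 18 went from 26.4% and 26.1% at 80% or more in WT to 0.408% and 0.0790% in KO. Cytosines between 20 and 80% were 8.59% of Pcdha in the first KO library and 3.05% in the second, 14.4% and 0.995% of Pcdhb, and 8.08% and 4.49% of Pcdhg. In the rest of chromosome 18 they were 23.2% and 14.8%, more than in WT. Only 1 of the 1453 member cytosines had a level of 80% or more in KO replicate 1, and 0 in KO replicate 2. In KO replicate 2, 99.0% of the Pcdhb cytosines lay under 20%.

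**Figure D2:**
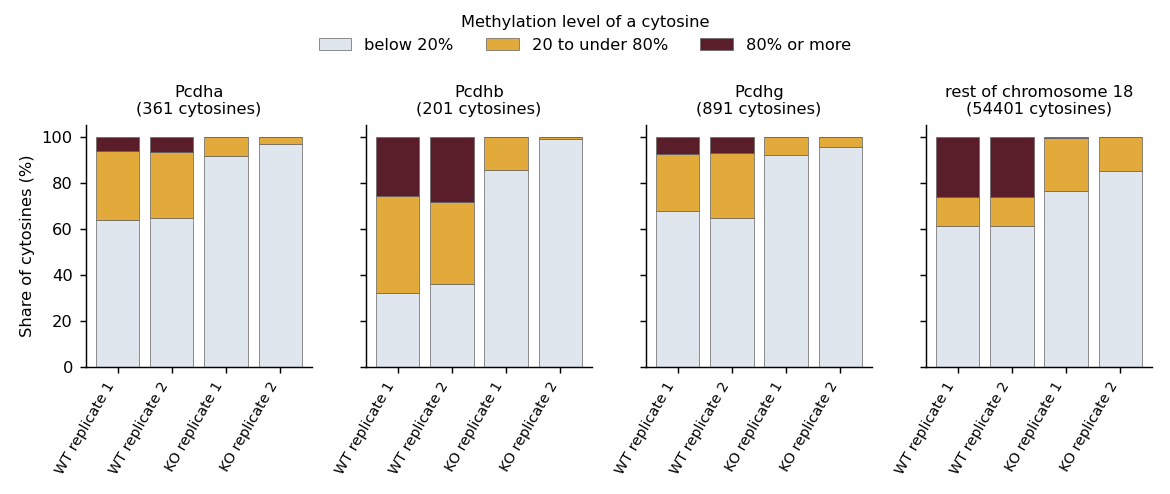
Share of cytosines in percent (vertical axis) with a methylation level below 20%, from 20 to under 80%, and at 80% or more, in each library (horizontal axis) for Pcdha, Pcdhb, Pcdhg and the rest of chromosome 18. The middle class is larger in the clusters than in the rest of the chromosome in WT, and smaller than in the rest of the chromosome in KO.

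Cytosine by cytosine, the KO libraries were both lower than the lower WT library at 196 of 361 cytosines of Pcdha (54.3%), 178 of 201 of Pcdhb (88.6%) and 505 of 891 of Pcdhg (56.7%), against 43.0% of all cytosines of the genome. The opposite was found at 0, 0 and 6 cytosines. These shares depend on how many cytosines had anything to lose: 23.8% of Pcdha, 2.49% of Pcdhb and 13.4% of Pcdhg had no methylated call in any library, and 37.9% of the rest of chromosome 18. The libraries of a genotype differed from each other too. Over member cytosines with enough calls for the comparison, the chi-square per degree of freedom was 1.22 between the WT libraries (428 cytosines) and 3.14 between the KO libraries (95 cytosines), where 1 is counting error alone.

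Most windows of Pcdhb, and about as many as not of Pcdhg, passed the test for a lower level in KO. The test was the quasi-likelihood test of edgeR, fitted to the methylated and unmethylated counts in all 121563 windows, with a Benjamini-Hochberg adjusted p below 0.05 and a difference of at least 10 points. It was passed downward by 12 of 18 windows of Pcdha, 18 of 21 of Pcdhb and 25 of 48 of Pcdhg, against 76.3% of all windows, and upward by 0 of 87, against 0.00247% of all windows. The 3 counts stand for 66.7%, 85.7% and 52.1%, so Pcdha and Pcdhg lay below the background and Pcdhb above it. A window under 10% in WT cannot fall by 10 points, so it could not be called. These shares therefore reflect how many windows were low in WT. Each of the 32 windows not called had a WT level under 20%, and all but 37851001 (10.5%) and 37921001 (13.9%) of Pcdhg were under 10%. All 44 windows at 20% or more were called, against 99.7% of such windows in the genome. With no minimum difference 77 of the 87 windows passed downward, against 83.9%, and 0 upward. The genotypes stood apart, with KO lower, in 15 windows of Pcdha, 21 of Pcdhb and 46 of Pcdhg, against 89.0% of all windows.

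**Figure D3:**
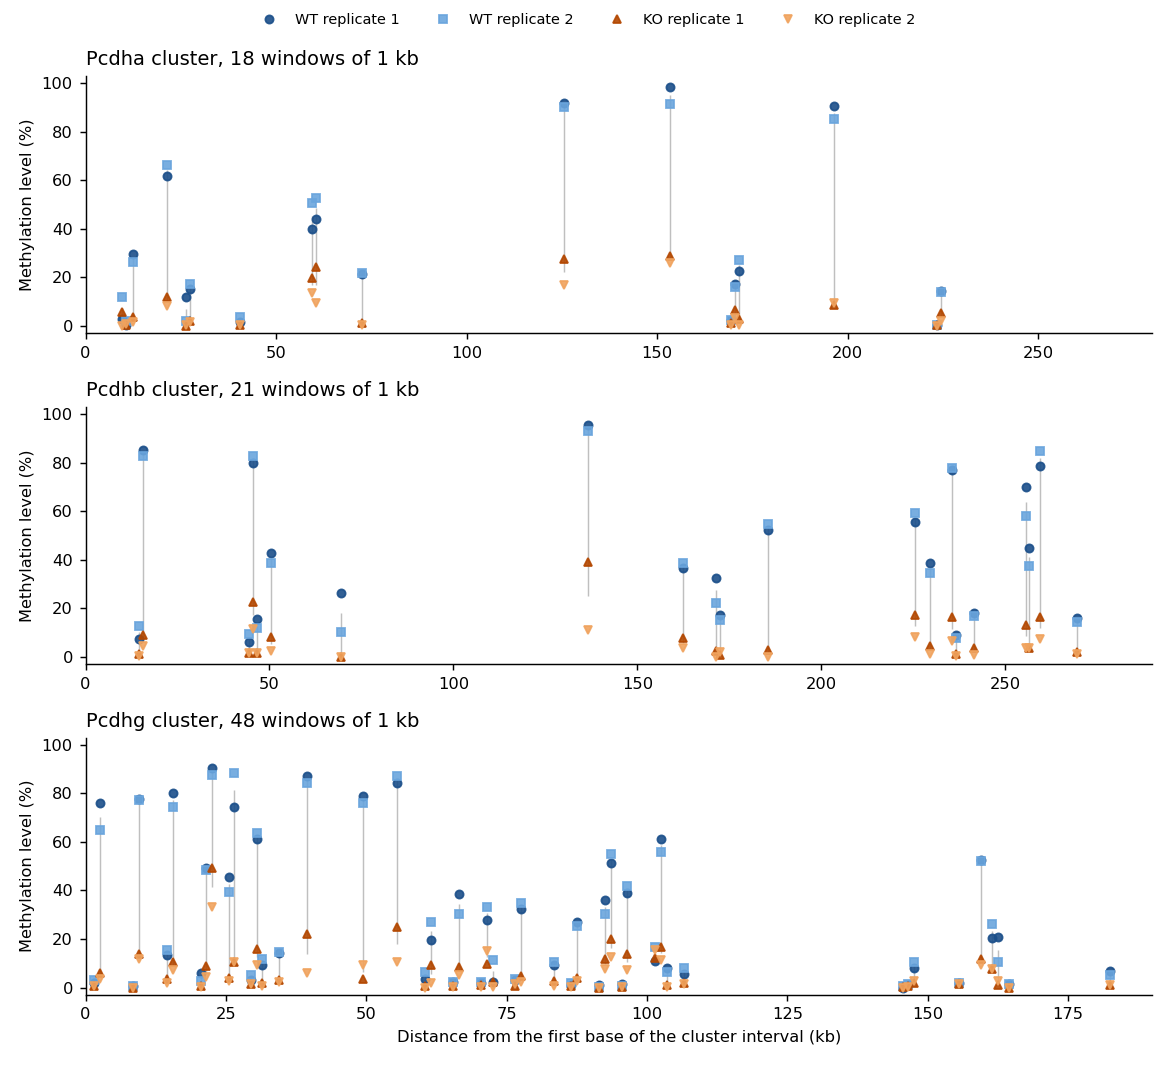
Methylation level in percent (vertical axis) of each 1 kb window along the 3 clusters, by distance in kb from the first base of the interval (horizontal axis), with 1 symbol per library and a grey line between the WT and the KO mean. Low windows stand beside high ones in WT, and the KO libraries lie near the bottom of the scale along the whole of each cluster, with few windows above 20%.

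Here a CpG-rich window is one with 20 or more cytosines that met the depth. A lower number may also come from few MspI sites or low depth, which was not tested. In Pcdha the 7 CpG-rich windows had WT levels of 0.270% to 27.9%, and the 3 windows at 80% or more in WT held few cytosines. The other 8 windows were of neither kind, such as 37101001 to 37102000, chosen after its values were seen, with 10 cytosines, 61.9% and 66.4% in WT and 12.1% and 8.25% in KO. The window with most cytosines, 37249001 to 37250000 with 52, had 2.53% and 2.28% in WT and 1.12% and 0.239% in KO, from 1072 to 1423 calls per library. The next, 37303001 to 37304000 with 44 cytosines, was unmethylated throughout, at 0.302% and 0.239% in WT and 0.367% and 0 in KO, where 0 of 831 calls allow a level of up to 0.361%. Its neighbour, 37304001 to 37305000 with 41 cytosines, had 14.3% ± 0.415 (SD, n = 2) in WT and 5.21% and 1.97% in KO, an adjusted p of 7.95e-06 in the edgeR quasi-likelihood test, and without KO replicate 2 its fall of 9.09 points was under the minimum difference. The windows 37090001 to 37091000 and 37120001 to 37121000, with 21 and 25 cytosines, stayed under 4% in every library. In the first of them the libraries of the genotypes overlapped.

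The 3 Pcdha windows with the largest falls held only 5 or 6 cytosines that met the depth. Window 37276001 to 37277000, with 5 cytosines, went from 90.5% and 85.1% in WT to 8.43% and 9.46% in KO, an adjusted p of 8.31e-20 in the edgeR quasi-likelihood test. It was the largest fall of the 87 windows, 78.8 points, from 94 to 178 calls per library. Windows 37205001 to 37206000 and 37233001 to 37234000 fell by 68.9 and 67.7 points and kept the highest levels of the cluster in KO, 27.4% and 16.7% in the first and 28.9% and 25.9% in the second. Window 37140001 to 37141000, with 13 cytosines, was part methylated in WT at 44.0% and 52.9%. Its KO libraries differed more than any other pair in the cluster, with 24.4% in KO replicate 1 and 9.44% in KO replicate 2.

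Pcdhb windows held fewer cytosines, 8 at the median and 24 at most, and 13 of the 21 had a WT level of 20% or more. The largest fall was in the window 37425001 to 37426000, whose 21 cytosines went from 85.0% and 82.9% in WT to 9.06% and 4.48% in KO, an adjusted p of 8.55e-31 in the edgeR quasi-likelihood test. The 1 kb before it, chosen after its values were seen, with 15 cytosines, was already low in WT at 7.32% and 12.7%, and had 1.23% and 0.347% in KO. Window 37645001 to 37646000, with 24 cytosines the largest of the cluster, went from 76.8% and 77.6% to 16.4% and 6.60%, a fall of 65.7 points. Of the other windows with most cytosines, 37456001 to 37457000 (18 cytosines) was low in WT at 15.5% and 11.7% and had 1.55% and 1.36% in KO. Window 37669001 to 37670000, with 4 cytosines, went from 78.8% and 84.7% to 16.3% and 7.32%.

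The window 37546001 to 37547000 of Pcdhb was where the KO libraries differed most. Its 8 cytosines had 95.7% and 93.1% in WT, 39.0% in KO replicate 1 and 11.2% in KO replicate 2. After it, the highest KO levels of the cluster were in 37455001 to 37456000, with 79.8% and 82.8% in WT and 22.7% and 11.4% in KO, and in 37635001 to 37636000, with 55.5% and 59.0% in WT and 17.1% and 8.29% in KO. KO replicate 1 was the higher of the pair in 19 of the 21 Pcdhb windows, 14 of the 18 of Pcdha and 36 of the 48 of Pcdhg. Over cytosines, KO replicate 2 held 40.9% of the level of KO replicate 1 in Pcdhb and 53.1% in Pcdha, against 65.6% in the rest of chromosome 18 and 68.2% in Pcdhg. The only Pcdhb window without a methylated call in both KO libraries, 37479001 to 37480000, had 26.2% and 10.3% in WT. Its 66 and 96 KO calls allow up to 4.55% and 3.12%.

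Pcdhg held the most cytosines, and its CpG-rich windows covered the range from unmethylated to part methylated. The window with most cytosines, 37834001 to 37835000 with 59, had 13.5% and 15.4% in WT and 3.59% and 1.81% in KO. Window 37907001 to 37908000, with 54 cytosines, had 26.8% and 25.5% in WT and 3.95% and 2.79% in KO, an adjusted p of 1.90e-14 in the edgeR quasi-likelihood test, from 2196 to 2484 calls per library. Window 37966001 to 37967000, with 51, had 1.11% and 1.46% in WT and 0.582% and 0.369% in KO. The other 3 CpG-rich windows named by the rule, those starting at 37854001, 37926001 and 37967001, had WT means under 20% and KO levels of 1.40% to 3.15%. Of them the first passed the test, though its fall was 6.70 points, under the minimum difference, with a coverage minimum of 20 calls.

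The windows with the largest falls in Pcdhg held 3 to 5 cytosines. Those starting at 37846001, 37859001 and 37869001 fell by 70.9, 71.8 and 71.0 points. Window 37846001 to 37847000 went from 74.3% and 88.5% in WT to 10.6% and 10.4% in KO. The highest KO level of the 87 windows was that of 37842001 to 37843000, with 8 cytosines, 90.3% and 87.5% in WT, 49.4% and 33.3% in KO. It still fell by 47.6 points, and the edgeR quasi-likelihood test gave an adjusted p of 4.40e-09. Within Pcdhg it was followed by 37875001 to 37876000, with 84.2% and 87.2% in WT and 24.8% and 10.7% in KO, and then by 37913001 to 37914000, with 51.4% and 54.9% in WT and 20.1% and 12.7% in KO.

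The following 2 windows of Pcdhg were chosen after their values were seen. Window 37921001 to 37922000, with 8 cytosines, had 11.0% and 16.8% in WT against 12.1% and 15.6% in KO. The difference of -0.0386 points was far within the spread of the libraries. In only 4 other member windows did the genotypes overlap, and these were 37090001 and 37303001, given above, and those starting at 37089001 (3 cytosines) and 37965001 (11 cytosines, under 0.5% in every library). Window 37891001 to 37892000, also with 8 cytosines, had 27.7% and 33.3% in WT and 9.71% and 15.1% in KO, so that KO replicate 2 was the higher of its pair. It passed the edgeR quasi-likelihood test at an adjusted p of 0.00504.

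Methylation changed sharply over short distances in Pcdhb and Pcdhg. Of pairs of windows directly side by side, 5 of 6 in Pcdhb and 18 of 22 in Pcdhg differed by 20 points or more in WT, against 0 of 6 in Pcdha and 124 of 709 (17.5%) in the rest of chromosome 18. In Pcdhg 15 of these 18 steps went up in the direction of ascending position, and in the rest of chromosome 18 57 of 124 did. The genes of the clusters are known to be transcribed in a common direction, but no window was placed in a gene. At the 15 rising steps of Pcdhg the WT level went from 11.7% to 54.4% on average, and the KO level from 2.77% to 11.6%. Examples chosen after their values were seen follow. At the start of the cluster 37821001 to 37822000 (30 cytosines) had 1.74% and 2.97% in WT and the next 1 kb (4 cytosines) had 76.0% and 64.8%. Further on, 37911001 to 37912000 (14 cytosines) had 1.01% and 0.279%, the next 1 kb 35.9% and 30.2%, and the third 51.4% and 54.9%.

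The steps were still visible in KO at a lower height. All 5 steps of Pcdhb had the WT direction in both KO libraries. In Pcdhg, 18 of 18 had it in KO replicate 1 and 17 of 18 in KO replicate 2. Nearly all steps in the rest of chromosome 18 kept their direction too, 119 and 120 of 124. The median height of the steps was 68.8 points in WT and 10.7 in KO in Pcdhb, and 39.8 and 8.40 in Pcdhg. In the rest of chromosome 18 it was 39.0 and 11.9 points. Windows with few cytosines set many of these steps, and the comparison of adjacent windows was added after the levels along the clusters had been seen.

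**Figure D4:**
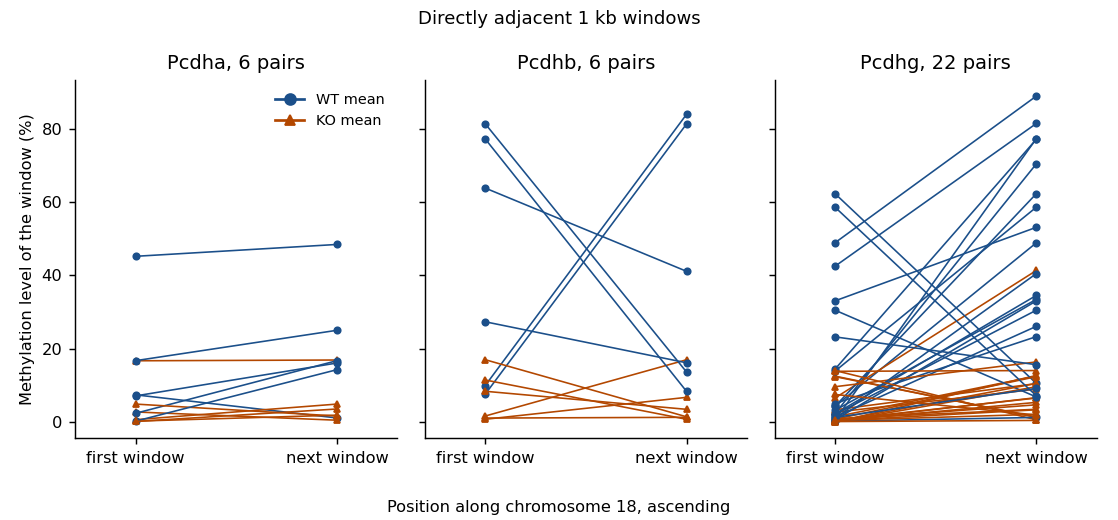
Methylation level in percent (vertical axis) of directly adjacent 1 kb windows, each pair joined by a line from the first to the next window in ascending position (horizontal axis), as WT mean and KO mean, for Pcdha, Pcdhb and Pcdhg. In Pcdhg, 15 of the 18 pairs that differ by 20 points or more in WT rise, and the KO lines keep the direction at a lower height.

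CpG-dense stretches were also taken without fixed window edges. Runs of at least 10 cytosines with gaps of at most 250 bp gave 11 patches in Pcdha, 6 in Pcdhb and 31 in Pcdhg, with a median length of 325, 262 and 252 bp. Their starts were spaced 10866, 6085 and 4012 bp apart at the median, against 26435 bp in the rest of chromosome 18, so CpG-dense sequence recurs along the clusters. In WT, 18 of the 48 patches (37.5%) were between 20 and 80% methylated and 3 (6.25%) at 80% or more. In the rest of chromosome 18 these were 20.7% and 31.8% of 1146 patches. The highest KO mean of any patch was 19.2%, and the genotypes stood apart, with KO lower, in 44 of 48 patches, against 902 of 1146 in the rest of chromosome 18.

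Few patches changed level along their length. Split at the middle cytosine, the earlier and later parts differed by 20 points or more in 5 of 31 patches of Pcdhg, 0 of 11 of Pcdha and 0 of 6 of Pcdhb, against 77 of 1146 in the rest of chromosome 18. Of the 5, 4 rose in ascending position and 1, 37912512 to 37912828, fell from 44.1% to 22.1%. The longest, 37834191 to 37835175 of Pcdhg (985 bp, 70 cytosines), averaged 2.23% over the earlier and 45.3% over the later cytosines in WT, and 0.234% and 6.64% in KO. The patch 37915994 to 37916829 (836 bp) went from 17.4% to 56.6% in WT and from 4.80% to 15.1% in KO between its earlier and later cytosines, and 37907109 to 37907918 (810 bp) from 10.8% to 43.0% and from 1.00% to 5.90%. In Pcdha the patch 37139744 to 37140112, with 24 cytosines, had every one of them between 20 and 80% in WT. Its levels were 41.9% and 49.6% in WT, 21.1% and 10.2% in KO.

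Among windows of part methylation, the methylation was usually spread over the cytosines rather than made of full and empty ones. In the 33 member windows with a WT level of 20 to 80%, 315 of 508 cytosines (62.0%) themselves lay between 20 and 80%. In Pcdha these were 75.2%, in Pcdhb 80.0% and in Pcdhg 54.2%, where 33.8% lay under 20%. The rest of chromosome 18 had 63.1% in 960 such windows. The remaining cytosines differed in kind: in the clusters 27.9% lay under 20% and 10.0% at 80% or more, and in the rest of chromosome 18 10.9% and 26.0%. Windows of part methylation made up 37.9% of windows in the clusters and 26.5% in the rest of the chromosome. Among windows with 20 or more cytosines, 9 of 26 (34.6%) were at 20 to 80% in the clusters and 46 of 568 (8.10%) in the rest of the chromosome, where 86.6% were under 20% and in the clusters 61.5%. The Pcdha part of this rests on few windows: 2 of its 7 CpG-rich windows had 20% or more, 4 of 9 with a coverage minimum of 5 calls, and 2 of 2 with one of 20.

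KO levels depend on the WT level and may depend on the number of cytosines in a window, so the windows were also set beside like windows. For each member window, the like windows were those of chromosome 18 outside the clusters with a cytosine number within a factor of 1.5 and a WT level within 5 points. At least 10 were found for 80 of the 87 windows. The 7 unmatched windows, 2 of Pcdha and 5 of Pcdhg, were all CpG-rich, with 29 to 59 cytosines. Of these, 6 had a WT level of 20% or more. Both CpG-rich Pcdha windows at 20% or more were among them, so the comparison does not cover these. In KO these Pcdha windows kept 6.80% of their WT level, against 25.3% in CpG-rich windows of 20 to 50% in the rest of chromosome 18. The 4 unmatched Pcdhg windows at 20% or more, starting at 37845001, 37907001, 37916001 and 37981001, kept 7.93%, 12.9%, 26.1% and 32.5%. Among the 38 matched windows at or above a WT level of 20%, both KO libraries lay below the medians of their like windows in 23, and both above in 7. In these, KO replicate 1 averaged 14.3% in member windows and 18.0% in like windows, and KO replicate 2 averaged 8.39% and 11.5%. The 42 matched windows under 20% in WT averaged 1.70% against 1.68% in KO replicate 1 and 1.20% against 1.22% in KO replicate 2. This near equality joins unlike clusters. In Pcdhb the 8 such windows averaged 1.47% against 2.80% and 0.929% against 2.20%, with both KO libraries below in 6 of 8. In Pcdhg the mean includes 37921001 to 37922000, at 12.1% and 15.6% where its like windows had 3.14% and 2.19%.

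Pcdhb stood furthest from its like windows. At a WT level of 20% or more its 13 windows averaged 12.5% in KO replicate 1 and 4.88% in KO replicate 2, where the like windows had 17.4% and 10.8%, and KO replicate 2 was below them in 13 of 13. Window 37425001 to 37426000 had a lower mean KO level than every one of its 54 like windows, whose medians were 28.8% and 18.1%. The 18 matched Pcdhg windows averaged 14.3% and 9.53%, against 17.5% and 11.2%. Within Pcdhg the matched windows went both ways: 37822001 to 37823000 had 5.81% and 3.66% where its 156 like windows had 20.8% and 13.1%, and 37842001 to 37843000 had 49.4% and 33.3% where its 542 like windows had 31.7% and 20.5%. The 7 matched Pcdha windows averaged 17.7% and 11.9%, against 20.5% and 13.3%. At a WT level of 20% or more the median difference was -2.47 points in Pcdha, -4.92 in Pcdhb and -2.20 in Pcdhg. Over matched windows of any WT level, 42 of 80 of them under 20%, it was -0.0121 points in Pcdha, -2.80 in Pcdhb and -0.184 in Pcdhg. It changed sign in Pcdha without WT replicate 1 (0.0740), without KO replicate 2 (0.0415), with a coverage minimum of 20 (0.111) and with at least 10 cytosines per window (0.223), and in Pcdhg without KO replicate 2 (0.0206). With 2 libraries a genotype this comparison carries no test, and the like windows share the libraries with the members.

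**Figure D5:**
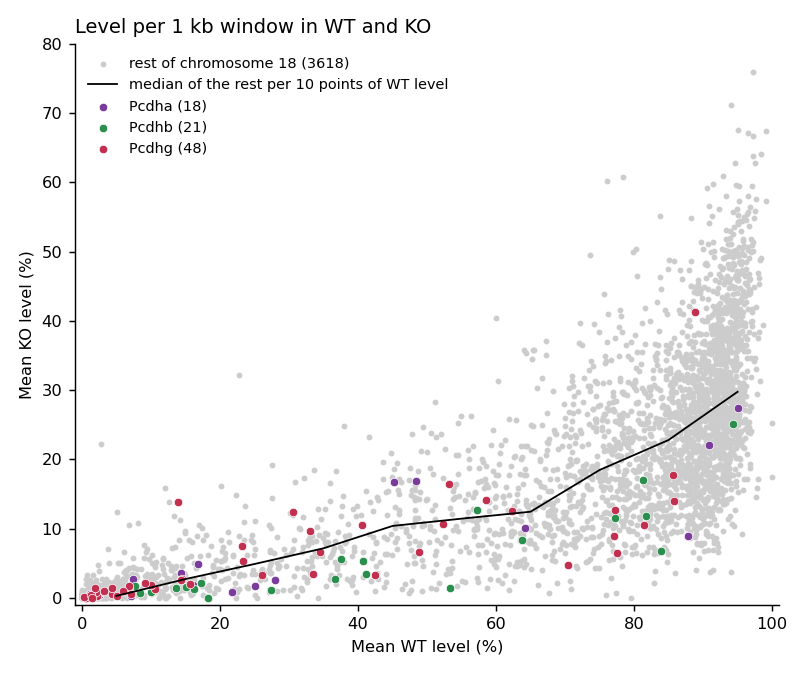
Mean KO level (vertical axis, percent) against mean WT level (horizontal axis, percent) of 1 kb windows, with the rest of chromosome 18 in grey, its median per 10 points of WT level as a line, and the windows of Pcdha, Pcdhb and Pcdhg in colour. The Pcdhb window at 84.0% in WT lies at 6.77% in KO, and 1 Pcdhg window, at 49.4% and 33.3% in the KO libraries, lies well above the line.

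On the log-odds scale, relative to the library-wide change and without matching on WT level, few cluster windows were called lower than the genome. In limma on logit levels, centred on the median change of windows with a mean level of 10 to 90% and with Benjamini-Hochberg adjustment, 1 of 10 such windows of Pcdha, 1 of 13 of Pcdhb and 0 of 23 of Pcdhg were below the shift, against 7.98% of windows in the genome. Above it were 3, 2 and 10 windows, against 17.6%. The 10 of Pcdhg are 43.5% of its 23 windows in this test. The mean level for entry includes KO, so a window under 20% in WT entered only if its KO level was high enough. Of those above the shift, 37250001 of Pcdha (16.8% in WT, 4.93% in KO) and 37921001 of Pcdhg (13.9% in both) entered in this way. Windows 37107001 of Pcdha (16.1% and 1.91%) and 37479001 of Pcdhb (18.2% and 0) did not enter. The counts above the shift thus depend in part on this filter. In windows of 20 to 50% in WT, 59.6% of those in the rest of chromosome 18 were above, so WT windows of the middle range generally lie there on this scale. In that range 6 of 10 windows of Pcdhg were above, but 2 of 5 of Pcdha and 1 of 5 of Pcdhb. The median log2 odds relative to the shift were 1.62 in Pcdhg, 0.464 in Pcdha and 0.366 in Pcdhb, against 1.61 in the rest of chromosome 18. At this WT level Pcdha and Pcdhb thus lay lower than the chromosome, over 5 windows each. The calls above the shift were mostly fewer with 1 library left out. A genotype then has 1 library, so lost power cannot be told apart from the part of the library left out. The Pcdhg share above the shift was 21.7% and 20.8% when the first or the second WT library was left out, 26.1% without KO replicate 1 and 0 without KO replicate 2. In Pcdhb no window was above the shift with any 1 library left out, and in Pcdha 0 was above without KO replicate 2.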

How the data were processed

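Reduced representation bisulfite libraries of 2 WT and 2 Naa10 KO samples were used, grouped by their titles. Per the submitters' processing notes, Trim Galore and Bismark 0.10.1 with build mm9 were used, with no role or order. The authors deposited, for each cytosine, a methylation percent and the counts of methylated and unmethylated calls, not normalised. The percent equals the ratio of the counts, and the counts were used. How reads were trimmed, whether duplicates were removed and how reads matching several near-identical protocadherin copies were placed is not given in the sources used here. No molecular identifiers are mentioned, so limits drawn from counts cover counting error only.

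Cytosines with 10 or more calls in all 4 libraries were kept (median depth 21 to 36 per library and cluster). Window levels are methylated over all calls in 1 kb windows of at least 3 cytosines, a cluster's level is the mean over cytosines, and coordinates are 1-based. Tests were edgeR 4.0.16 (quasi-likelihood, a term per library) and limma 3.58.1 (0.5 added to each count) in R 4.3.3, fitted on all windows, and exact permutation tests in scipy 1.17.1. Scripts were tested on simulated data. The text names, per cluster, the 3 windows with most cytosines, with the largest fall and with the highest KO level, any window called higher, up to 5 CpG-rich windows (20 or more cytosines) under 20% in WT, and up to 5 uncalled windows at 20% or more. Alternatives were other coverage minimums, window sizes, tests, thresholds, centrings and weights, and leaving out libraries. Comparisons of adjacent windows, patches, cytosines within windows and the rest of chromosome 18, and the windows and patches given as examples, were chosen after values were seen. Members and lists were chosen with earlier results of these data known.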

Additional observations from a re-analysis of the deposited data

How the results depend on the processing

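The cluster means were lower in KO under every alternative run, by 14.8 to 17.1 points in Pcdha, 36.9 to 42.5 in Pcdhb and 16.0 to 17.8 in Pcdhg as 1 library was left out. With each 1 kb window weighing the same the differences were -25.1, -36.2 and -22.4 points. With 1 library left out, the KO share of the WT level over cytosines ranged from 13.2% to 24.9%, 8.26% to 20.2% and 17.3% to 25.4%. The ends of these ranges are the values of the single KO libraries. The share of windows called lower ranged, again with 1 library left out, from 61.1% to 66.7%, 85.7% to 90.5% and 47.9% to 52.1%. Of other settings, no minimum difference gave 85.4% in Pcdhg and a minimum of 25 points 38.9% in Pcdha. Of 289 values of the 28 named windows, 287 kept their side of the threshold and 2 did not.

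At a WT level of 20% or more the median difference from like windows was -2.47 points in Pcdha, -2.20 in Pcdhg and -4.92 in Pcdhb. Over matched windows of any WT level, 42 of 80 of them under 20%, it was near 0 in Pcdha and Pcdhg. In Pcdha it ranged from -0.427 to 0.0740 points as 1 library was left out, and was -0.382 with a coverage minimum of 5, -0.372 in windows of 0.5 kb, -0.694 with closer matching, -0.635 with like windows of all autosomes, but 0.111 with a coverage minimum of 20 and 0.223 with at least 10 cytosines per window. In Pcdhb it ranged from -4.40 to -2.03 and was -5.14 with at least 10 cytosines per window. In Pcdhg it ranged from -0.288 to 0.0206 and was -0.0133 with at least 10 cytosines. The share of Pcdha cytosines between 20 and 80% was 38.8% with a coverage minimum of 20. The share of its CpG-rich windows at 20% or more in WT was 44.4% with a minimum of 5 and 100% with one of 20, from 9 and 2 windows; Pcdhb had 0 such windows at 20.

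Calls relative to the library-wide shift were the least stable. Leaving out 1 library gave 0 to 30.0% of windows above it in Pcdha, 0 in Pcdhb and 0 to 26.1% in Pcdhg, and below it 0 to 10.0%, 0 to 15.4% and 0. Below the shift, Pcdha had 0% with coverage minimums of 5 and 20, with the replicate block and with centring on chromosome 18. Pcdhb had 25% with a minimum of 20 and with at least 10 cytosines, and 0% in 2 kb windows, and Pcdhg had 5.56% and 7.69% with those first 2 settings. Above it, Pcdhb had 0% with a minimum of 5, with at least 10 cytosines and with the replicate block. The cause was not tested. The replicate numbers pair no samples by the labels: the difference of the WT libraries and that of the KO libraries had a correlation of -0.0039 over all windows and -0.0615 over the 87, and the replicate block moved no share of windows called lower in KO by over 1.5 times.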
